A study of Homo sapiens with 9 samples.

Results

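The interleukin-1 family genes examined were IL1A, IL1B, IL18, IL33, IL36B and IL36G, which encode agonist cytokines, IL1RN and IL36RN, which encode receptor antagonists, and IL1R1 and IL1R2, which encode receptors. They were taken by gene symbol, and all 10 were found among the 60609 genes counted. Of the 10, 7 passed the filter on low counts, as did 26412 genes in all, and IL33, IL36B and IL36G did not.

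The cells were MCF-10A, an immortal line of human mammary epithelium that forms no tumours, and the study set its parental form beside knock-in forms with either hotspot mutation of PIK3CA, which encodes the catalytic p110-alpha chain of phosphoinositide 3-kinase. The groups were PIK3CA E545K knock-in cells, PIK3CA H1047R knock-in cells and parental PIK3CA wild-type cells (WT), with 3 RNA-seq libraries each. The knock-in lines had been maintained with no EGF (0 ng/ml) and the WT line with 20 ng/ml EGF, so genotype and maintenance EGF cannot be told apart. Maintenance medium held 5% horse serum for every line. All 3 groups shared a final 24 h in assay medium, in which charcoal-stripped serum was at 1% and EGF at 0.2 ng/ml, and to which insulin (10 µg/ml), cholera toxin (100 ng/ml) and hydrocortisone (0.5 µg/ml) had been added. Hydrocortisone is a glucocorticoid and cholera toxin raises cyclic AMP, so every group, WT included, was measured under both. The labels do not say whether a knock-in line is 1 clone, nor whether libraries of a genotype came from separate cultures, so each p-value rests on library-to-library spread alone, and that spread may be technical.

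IL-1 alpha and IL-1 beta bind the same receptor, IL1R1, which then recruits the accessory chain IL1RAP and signals through MYD88, IRAK kinases and NF-kB. IL-1 beta and IL-18 are made as precursors that caspase-1 cleaves in inflammasomes, whereas the IL-1 alpha precursor is already active and acts as an alarm signal when epithelial cells are damaged. The IL1RN product occupies IL1R1 without signalling, and IL1R2 is a decoy that binds IL-1 but does not signal. IL-36 cytokines act through IL1RL2, chiefly in stratified epithelia, where IL36RN blocks them, and IL-33 is a nuclear cytokine of barrier cells. RNA levels do not show whether a precursor was cleaved or released.

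Total counts were 95533991 to 134245702 in E545K libraries, 377093507 to 605972919 in H1047R libraries and 95091894 to 136132315 in WT libraries. H1047R counts stood in a table of their own, so the table and that genotype cannot be told apart. In the H1047R libraries 77.6 to 78.1% of counts were in protein-coding genes, against 85.2 to 86.0% in the E545K and WT libraries. The biological coefficient of variation was 0.216 within H1047R, 0.0286 within E545K and 0.0328 within WT. Every test used 1 estimate of spread per gene over all 9 libraries, so E545K over WT also carried the spread of H1047R. In turn, the comparisons with H1047R drew on the tighter spread of the other libraries. All 12 markers of basal breast epithelium reached 1 CPM (counts scaled to a common library size) in each genotype. PIK3CA itself averaged 38.1 ± 0.909 CPM in E545K, 42.7 ± 1.13 CPM in H1047R and 46.1 ± 2.03 CPM in WT (SD, n = 3 libraries each), and the counts hold no information on its alleles.

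The 250 bases before the start site are shown for the 4 genes that encode the ligands, antagonist and signalling receptor of the IL-1 system. The start used was that of the MANE Select transcript, 1 reference transcript per gene, and other starts were not searched. The gene models of IL1RN and IL1R1 begin upstream of it, at 113107214 against a start of 113127598 and at 102064544 against 102142746. The sequences shown are RefSeq sequences of GRCh38.p14, written 5′ to 3′ on the gene's strand up to the base before the start. Capitals mark motif matches. IL1A is at chr2:112784494-112784743 (minus strand), IL1B at chr2:112836780-112837029 (minus strand), IL1RN at chr2:113127348-113127597 (plus strand) and IL1R1 at chr2:102142496-102142745 (plus strand).
IL1A: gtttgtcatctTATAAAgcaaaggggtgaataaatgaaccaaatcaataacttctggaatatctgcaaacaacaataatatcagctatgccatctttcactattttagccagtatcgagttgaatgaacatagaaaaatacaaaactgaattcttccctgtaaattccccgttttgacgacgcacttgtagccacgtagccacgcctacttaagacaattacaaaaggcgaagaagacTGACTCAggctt
IL1B: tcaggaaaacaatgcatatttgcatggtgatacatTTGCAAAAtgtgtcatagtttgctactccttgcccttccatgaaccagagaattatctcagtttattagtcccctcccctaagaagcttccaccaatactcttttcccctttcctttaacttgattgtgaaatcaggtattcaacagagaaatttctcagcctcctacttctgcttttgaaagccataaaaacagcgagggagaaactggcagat
IL1RN: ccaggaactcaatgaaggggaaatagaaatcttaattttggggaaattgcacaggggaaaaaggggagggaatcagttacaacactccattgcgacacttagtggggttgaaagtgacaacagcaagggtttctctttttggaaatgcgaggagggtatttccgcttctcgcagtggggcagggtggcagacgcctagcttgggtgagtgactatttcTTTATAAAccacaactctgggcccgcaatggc
IL1R1: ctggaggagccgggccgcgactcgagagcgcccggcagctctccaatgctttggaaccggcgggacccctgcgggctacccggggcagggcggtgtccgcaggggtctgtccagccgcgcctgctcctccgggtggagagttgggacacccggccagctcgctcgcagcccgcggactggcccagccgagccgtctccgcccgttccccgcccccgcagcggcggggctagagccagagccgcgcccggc
The motifs searched, on both strands, were the TATA box as TATAAA, the AP-1 site as TGANTCA, the C/EBP site as TTGCNNAA, and the NF-kB consensus. Of 35116 windows of the same length, 10.7% held the first, 6.57% the AP-1 site, 9.05% the C/EBP motif and 5.21% the NF-kB consensus. The IL1A window held TGACTCA at bases 12 to 6 before the start and TATAAA at bases 239 to 234. The IL1B window held TTGCAAAA at bases 215 to 208. The IL1RN window held TATAAA at bases 30 to 25, overlapped by the same motif read on the other strand at bases 32 to 27. The IL1R1 window held none of the 4 motifs and was 76.8% G and C, against 37.6% for IL1A, 40.0% for IL1B and 48.4% for IL1RN. RefSeq windows were matched for 8 of the 10 genes, and none of the 8 held the NF-kB consensus.

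IL1A, the gene of the constitutively active IL-1 alpha precursor (ENSG00000115008.5, chr2:112773915-112784590, minus strand, 7 exon blocks), was higher in E545K cells and lower in H1047R cells than in WT cells. IL1A was at 52.9, 51.1 and 49.5 CPM in the E545K libraries, 11.5, 14.3 and 12.1 CPM in the H1047R libraries and 26.4, 25.99 and 27.4 CPM in the WT libraries, CPM being scaled by TMM, a factor for library composition. Every E545K library was above every WT library, every H1047R library was below, and no 2 genotypes overlapped. The log2 fold change was 0.95 ± 0.07 for E545K over WT (± standard error; edgeR quasi-likelihood test, adjusted p = 4.26e-08) and -1.07 ± 0.07 for H1047R over WT (adjusted p = 4.01e-09). H1047R lay 4.04-fold below E545K, a log2 fold change of -2.02 ± 0.07 (edgeR, adjusted p = 7.42e-12), which is also the test of whether both mutants differ from WT by the same amount. In bulk RNA such as this, fewer cells that express a gene and less RNA per cell cannot be told apart.

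IL1B, the gene of the inflammasome-dependent IL-1 beta precursor (ENSG00000125538.12, chr2:112829751-112836816, minus strand), was lower in both mutants, and far lower in H1047R. IL1B stood at 9.98, 11.9 and 10.3 CPM in E545K, 1.07, 1.23 and 1.12 CPM in H1047R and 27.9, 29.6 and 30.5 CPM in WT. The 3 genotypes were separated without overlap, and the H1047R libraries held about a CPM each. E545K over WT gave a log2 fold change of -1.45 ± 0.07 (edgeR, adjusted p = 8.99e-10), and H1047R over WT gave -4.68 ± 0.08, which is 25.6-fold lower (adjusted p = 5.54e-15). H1047R was also below E545K, by -3.23 ± 0.08 on the log2 scale (edgeR, adjusted p = 3.03e-13). In E545K cells IL1A and IL1B, neighbours on the chromosome and ligands of the same receptor, therefore moved in opposite directions.

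IL18, whose product is another caspase-1 substrate and induces interferon-gamma in lymphocytes (ENSG00000150782.12, chr11:112143253-112164096, minus strand), was the most abundant member and moved little. It stood at 122.5, 121.1 and 122.8 CPM in E545K, 114.5, 107.8 and 85.6 CPM in H1047R and 105.6, 106.9 and 107.4 CPM in WT. All E545K libraries were above all WT libraries, whereas H1047R libraries lay on both sides of WT and the third was the lowest of all 9. The log2 fold change of 0.20 ± 0.08 for E545K over WT did not pass the threshold (edgeR, adjusted p = 0.0587), although it passed under 10 of 19 alternatives. H1047R over WT was -0.06 ± 0.08 (adjusted p = 0.559), and H1047R was lower than E545K by -0.25 ± 0.08 (edgeR, adjusted p = 0.0115).

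The other agonists were near the limit of counting. IL36G, an epithelial IL-36 cytokine (ENSG00000136688.11, chr2:112973203-112985658), had 6, 4 and 4 counts in E545K, 16, 70 and 32 in H1047R and 0, 4 and 0 in WT. Summed over libraries these are 0.0421 CPM in E545K (exact Poisson 95% interval 0.0230 to 0.0706), 0.0786 CPM in H1047R (0.0651 to 0.0941) and 0.0122 CPM in WT (0.00333 to 0.0313). The intervals of H1047R and WT do not overlap, but they cover counting error only and IL36G was not tested. IL33 (ENSG00000137033.11, chr9:6215786-6257983) had 4, 6 and 2 counts in E545K, 2, 5 and 2 in H1047R and 3, 7 and 0 in WT. IL36B had at most 3 counts in any library, which is no more than a count of 0 allows. That limit of 3 counts is 0.0223 to 0.0314 CPM in E545K libraries, 0.00495 to 0.00796 CPM in H1047R and 0.0220 to 0.0315 CPM in WT. IL33 and IL36B RNA was thus not measurable beyond a trace at this depth in any genotype.

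**Figure D1:**
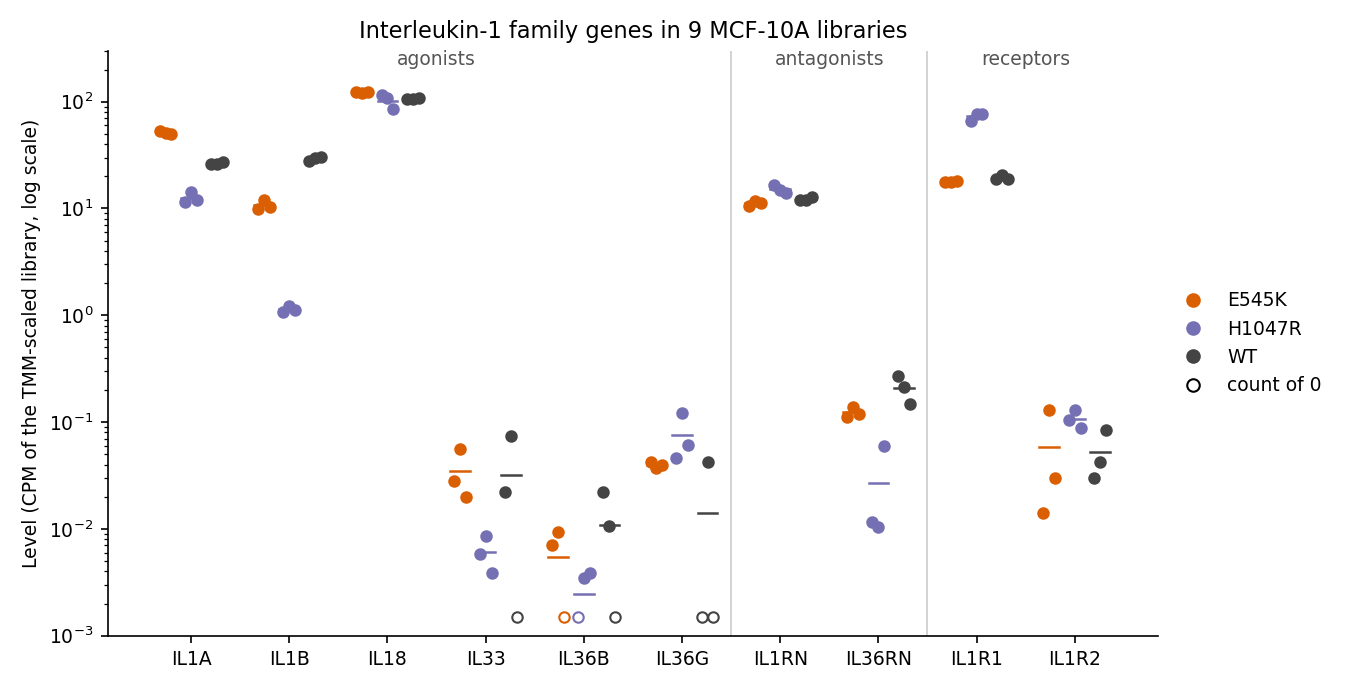
Level of each of the 10 interleukin-1 family genes in each of the 9 libraries, in CPM on a log scale. Points are libraries, lines are means of 3 libraries, and open points at the bottom are counts of 0. Libraries of the 3 genotypes do not overlap for IL1A, IL1B, IL1RN and IL1R1. For IL1RN and IL1R1, E545K lies only slightly below WT. IL33, IL36B, IL36G, IL36RN and IL1R2 stay below 0.3 CPM throughout.

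Among the antagonists, IL1RN rose modestly in H1047R cells. IL1RN (ENSG00000136689.18, chr2:113107214-113134016, plus strand) stood at 10.7, 11.7 and 11.4 CPM in E545K, 16.5, 15.1 and 14.0 CPM in H1047R and 11.9, 11.9 and 12.7 CPM in WT. The H1047R libraries were the 3 highest, and the E545K libraries lay just below the WT libraries. H1047R over WT gave a log2 fold change of 0.32 ± 0.07 (edgeR, adjusted p = 0.000776) and H1047R over E545K 0.44 ± 0.07 (adjusted p = 5.4e-05). E545K over WT was -0.12 ± 0.07 and did not pass (edgeR, adjusted p = 0.207).

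IL36RN, the antagonist of IL-36 (ENSG00000136695.14, chr2:113058638-113065382, plus strand), was scarce everywhere and lowest in H1047R. It had 16, 15 and 12 counts in E545K, 4, 6 and 31 in H1047R and 36, 20 and 14 in WT. Since H1047R libraries were deeper, these are 0.112, 0.139 and 0.120 CPM in E545K, 0.0115, 0.0104 and 0.0596 CPM in H1047R and 0.268, 0.211 and 0.149 CPM in WT. H1047R over WT was -2.91 ± 0.67 on the log2 scale (edgeR, adjusted p = 0.00178), and without the third H1047R library it was -4.19 (adjusted p = 5.41e-05). H1047R over E545K was -2.14 ± 0.67 (edgeR, adjusted p = 0.0149), -3.42 without the third H1047R library, and -1.73 without the second, where the call was lost (adjusted p = 0.058). E545K over WT, at -0.77 ± 0.65, did not pass (edgeR, adjusted p = 0.398).

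IL1R1, the signalling receptor (ENSG00000115594.12, chr2:102064544-102179874, plus strand), had the largest rise among the 7 tested members, in H1047R. It stood at 17.6, 17.6 and 18.0 CPM in E545K, 66.5, 76.8 and 76.8 CPM in H1047R and 18.9, 20.5 and 19.0 CPM in WT. H1047R libraries were far above all others, and E545K libraries were all slightly below WT. The log2 fold change was 1.91 ± 0.06 for H1047R over WT, or 3.77-fold (edgeR, adjusted p = 1.24e-12), and 2.05 ± 0.06 for H1047R over E545K (adjusted p = 1.34e-12). For E545K over WT it was -0.13 ± 0.06 (edgeR, adjusted p = 0.0983). Only 0.2% of the exon bases of IL1R1 were shared with another gene, its antisense transcript.

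IL1R2, the decoy receptor (ENSG00000115590.14, chr2:101991960-102028544, plus strand), had 2, 14 and 3 counts in E545K, 36, 75 and 46 in H1047R and 4, 4 and 8 in WT. Every H1047R library was above every WT library in CPM, but the second E545K library was as high as H1047R. H1047R over WT was 1.07 ± 0.71 on the log2 scale (edgeR, adjusted p = 0.221), H1047R over E545K 0.92 ± 0.69 (adjusted p = 0.282) and E545K over WT 0.14 ± 0.79 (adjusted p = 0.914). Without the second E545K library, H1047R over E545K was 2.33 and passed (edgeR, adjusted p = 0.0301).

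Read from the same fit over all 26412 genes, E545K over WT called 2 of the 7 tested members, IL1A higher and IL1B lower, where 36.6% of all tested genes were called (17.7% higher and 18.9% lower). H1047R over WT called 5 of 7, IL1RN and IL1R1 higher and IL1A, IL1B and IL36RN lower, against a background of 55.5% (27.4% higher and 28.1% lower). H1047R over E545K called 6 of 7, IL1RN and IL1R1 higher and IL1A, IL1B, IL18 and IL36RN lower, against 53.2% (25.9% higher and 27.3% lower). Counting only calls of at least 2-fold, E545K over WT had 0 members higher and 1 lower, where 4.52% of all tested genes were higher and 2.58% lower. H1047R over WT had 1 higher and 3 lower, where the background was 10.0% and 7.39%, and H1047R over E545K had 1 higher and 3 lower, where it was 7.74% and 7.24%. Large shares of all genes thus differed between the genotypes, and what is described here is the size and direction of single genes. The median log2 fold change of the 7 tested members was -0.12, -0.06 and -0.25 in these 3 comparisons, against 0.003, 0.02 and 0.02 over all tested genes. The first 2 comparisons share their WT libraries.

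**Figure D2:**
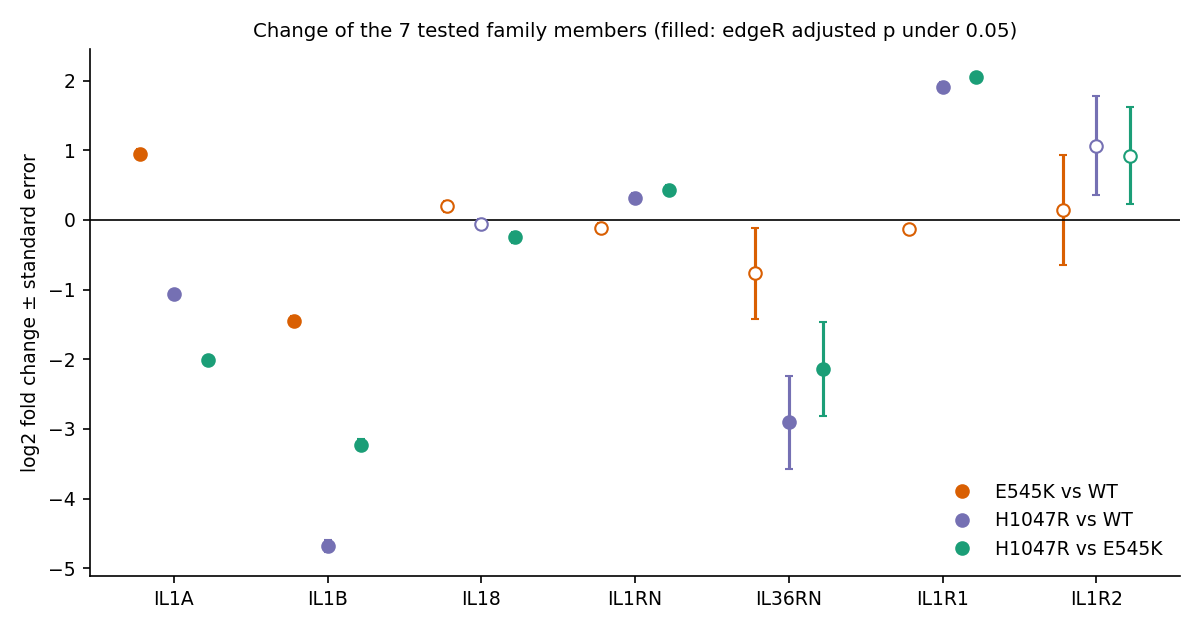
Log2 fold change of the 7 tested members in E545K vs WT, H1047R vs WT and H1047R vs E545K, with bars of 1 standard error, filled where the edgeR adjusted p is under 0.05. IL1A lies at 0.95 in E545K vs WT and at -1.07 in H1047R vs WT, IL1B lies below 0 in all 3 comparisons, and IL1R1 is near 0 in E545K vs WT only.

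Levels of different genes were compared as CPM per kilobase of exon, over the merged exons of each gene model. In E545K cells the order was IL18 at 46.9, IL1A at 24.1, IL1B at 3.57, IL1RN at 3.45 and IL1R1 at 2.49 CPM per kilobase. In H1047R cells it was IL18 at 39.4, IL1R1 at 10.3, IL1A at 5.95, IL1RN at 4.66 and IL1B at 0.379. In WT cells it was IL18 at 41.0, IL1A at 12.5, IL1B at 9.75, IL1RN at 3.74 and IL1R1 at 2.73. Neighbours in these orders did not overlap between libraries, except IL1B and IL1RN in E545K, and the other 5 members were below 0.07 CPM per kilobase in each genotype. IL1R1 thus went with the lowest place among these 5 genes in E545K and WT and the second place in H1047R, and IL1B with the last place in H1047R.

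The balance between the ligands of IL1R1 shifted in both mutants. Per exon base, the IL1A to IL1B ratio was 7.52, 6.09 and 6.80 in E545K libraries, 15.3, 16.5 and 15.4 in H1047R libraries and 1.34, 1.24 and 1.27 in WT libraries. WT cells thus held similar RNA of both ligands, and mutant cells held mostly IL1A. Antagonist RNA relative to agonist RNA, IL1RN over IL1A plus IL1B, was 0.125 ± 0.00786 in E545K, 0.744 ± 0.119 in H1047R and 0.168 ± 0.00187 in WT (SD, n = 3 each). E545K libraries were all below WT and H1047R libraries all above it. Receptor over accessory chain, IL1R1 over IL1RAP, was 1.53 ± 0.0693 in E545K, 8.05 ± 1.35 in H1047R and 2.41 ± 0.0979 in WT. These ratios were not tested, and a ratio of RNA is not a ratio of proteins.

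IL18 made up 62.9% ± 0.793 of the summed agonist RNA per exon base in E545K, 85.9% ± 2.13 in H1047R and 64.8% ± 0.524 in WT (SD, n = 3 each). The share of IL1A was 32.3% ± 0.775 in E545K, 13.1% ± 1.97 in H1047R and 19.8% ± 0.370 in WT. That of IL1B was 4.78% ± 0.466 in E545K, 0.836% ± 0.119 in H1047R and 15.4% ± 0.456 in WT. IL18 was thus the largest part of the agonist RNA in all 3 genotypes, with its highest share in H1047R, although IL18 itself was not called in H1047R over WT.

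**Figure D3:**
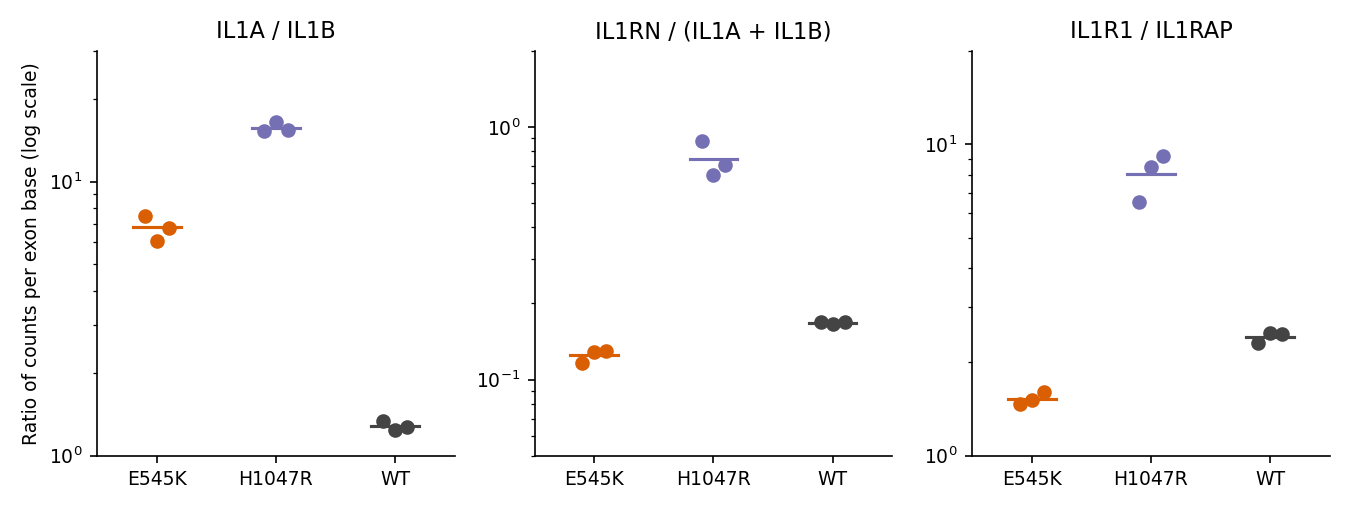
Ratios of counts per exon base in each library, on log axes, for E545K, H1047R and WT, with lines at the mean of 3 libraries. IL1A over IL1B is near 1.29 in WT and above 6 in every mutant library, while IL1RN over the summed agonists and IL1R1 over IL1RAP are highest in H1047R and lowest in E545K.

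The ligand and antagonist genes other than IL18 and IL33 lie in a cluster on chromosome 2 that runs from IL1A to IL1RN, and in H1047R over WT every tested gene on its IL1A side was lower, whereas in E545K over WT directions were mixed. Among the 16 protein-coding genes inside the cluster or within 200 kb of it, 5 inside it were below the filter. On the IL1A side, SLC20A1, a phosphate transporter, had a log2 fold change of 0.24 in E545K over WT and -1.01 in H1047R over WT, and POLR1B, a subunit of RNA polymerase I, had 0.22 and -0.22, all called by edgeR. CHCHD5, a mitochondrial protein, fell by 0.50 in H1047R (adjusted p = 9.6e-05) and was not called in E545K (-0.16, adjusted p = 0.153). CKAP2L, a spindle protein next to IL1A, fell by 2.62 on the log2 scale in H1047R and was not called in E545K (0.26, adjusted p = 0.0675). NT5DC4 had -1.68 in H1047R (adjusted p = 5.25e-05) and 0.39 in E545K (not called, adjusted p = 0.257), but it overlaps CKAP2L on the other strand and its counts are uncertain. From POLR1B to IL1B all 7 genes, IL1A and IL1B among them, were thus called lower in H1047R over WT. All 7 were lower in H1047R than in E545K as well. Of all tested genes, 28.1% were called lower in H1047R over WT and 27.3% in H1047R over E545K. Whether this stretch moved as a unit was not tested. On the IL1RN side, PSD4 rose in both, by 0.46 in E545K and 0.39 in H1047R, and PAX8 was called in neither.

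**Figure D4:**
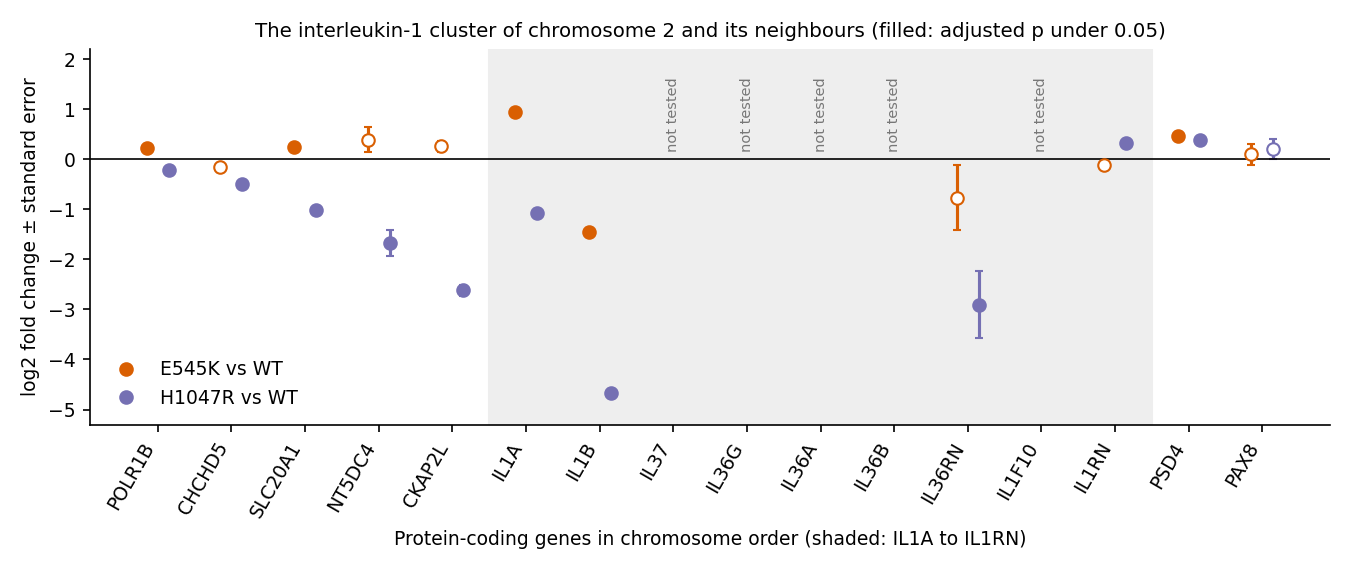
Log2 fold change over WT of the protein-coding genes in and around the cluster, in chromosome order, with bars of 1 standard error and filled points where the adjusted p is under 0.05. Inside the shaded cluster IL1A is above 0 in E545K and below 0 in H1047R, IL1B is below 0 in both, and IL1RN is above 0 in H1047R only among the called values.

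Genes whose profile over the 9 libraries came closest were found among 11343 protein-coding genes by the root-mean-square difference of centred log2 CPM. For IL1A these were GAS2L3 (0.135), NRIP3 (0.142) and KANK4 (0.147), and KANK4, for instance, averaged 65.1 CPM in E545K, 16.8 CPM in H1047R and 37.7 CPM in WT. For IL1B they were IGFBP6 (0.305), ADAM19 (0.391) and SEMA3B (0.395). IGFBP6, a binding protein of insulin-like growth factors, averaged 79.3 CPM in E545K, 9.25 CPM in H1047R and 179.3 CPM in WT. For IL1R1 they were NBPF14 (0.101), DENND2D (0.104) and NBPF10 (0.105), of which the NBPF genes are near-identical copies that share reads. The differences were larger for IL1B than for IL1A and IL1R1. The measure is not scaled to the size of a gene's change, which was also larger for IL1B. It therefore does not show whether IL1B was followed less closely than IL1A and IL1R1.

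The remaining family members and the pathway around them were read from lists grouped by function, which were chosen with earlier results of these data known. The counts called in each list are therefore no independent test. The ligands IL36A, IL37 and IL1F10 were not tested. Summed over libraries, IL36A had 0 counts in E545K, 0 in H1047R and 1 in WT. IL37 had 4 counts in E545K, 4 in H1047R and 9 in WT, and IL1F10 had 3 in E545K, 10 in H1047R and 2 in WT. Corrected for depth, IL37 was at 0.0120 CPM in E545K, 0.00267 CPM in H1047R and 0.0275 CPM in WT. IL1F10 was at 0.00902 CPM in E545K, 0.00666 CPM in H1047R and 0.00611 CPM in WT.

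The counts of each list stand against the same shares of all tested genes, which were 17.7% higher and 18.9% lower in E545K over WT and 27.4% higher and 28.1% lower in H1047R over WT, with medians of 0.003 and 0.02 on the log2 scale. Of 9 other receptors and binding proteins, 7 were tested. In E545K over WT 2 were called higher and 2 lower, with a median log2 fold change of 0.53, and in H1047R over WT 5 were higher and 2 lower, with a median of 0.96. That count of 5 was 3 without the first H1047R library, with limma-voom, and with a filter at 1 CPM, and that of 2 was 1 under 4 alternatives in scaling or filtering. IL1RL2, the IL-36 receptor, was at 4.14, 4.42 and 4.48 CPM in E545K, 4.48, 3.73 and 4.32 CPM in H1047R and 2.04, 2.15 and 2.27 CPM in WT. It was called in both mutants, with a log2 fold change of 1.02 ± 0.10 for E545K (edgeR, adjusted p = 1.56e-06) and 0.96 ± 0.10 for H1047R (adjusted p = 8.64e-07). IL18R1, the ligand-binding chain of the IL-18 receptor, was at 8.56, 9.84 and 9.18 CPM in H1047R and 3.68, 3.94 and 3.57 CPM in WT, a log2 fold change of 1.30 ± 0.10 (edgeR, adjusted p = 2.18e-08), and was not called in E545K (0.13, adjusted p = 0.356). Its partner chain IL18RAP had 15 counts in E545K, 180 in H1047R and 8 in WT over all libraries. Since H1047R libraries were deeper, these are 0.0451 CPM in E545K, 0.120 CPM in H1047R and 0.0244 CPM in WT. IL18RAP was called higher in H1047R over WT (2.32 ± 0.65, edgeR, adjusted p = 0.00682) and not called in E545K over WT (0.78, adjusted p = 0.456).

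IL1RAP, the chain that IL1R1 needs to signal, rose in both mutants, unlike IL1R1. Its log2 fold change was 0.53 ± 0.07 for E545K over WT (edgeR, adjusted p = 2.07e-05), 0.19 ± 0.07 for H1047R over WT (adjusted p = 0.0266) and -0.34 ± 0.07 for H1047R over E545K (adjusted p = 0.00047). Not all inhibitors of the family moved alike. IL1RN rose in H1047R, as given above, whereas SIGIRR, an inhibitory receptor, fell by 0.47 in E545K and by 0.17 in H1047R on the log2 scale, and IL18BP, the soluble inhibitor of IL-18, fell by 0.32 in E545K and by 0.19 in H1047R, all called by edgeR. Of the exon bases of IL18BP, 15.9% are shared with NUMA1 on the other strand, so its counts are uncertain.

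Of 17 genes of inflammasomes, pyroptosis and precursor-cleaving proteases, 13 were tested. E545K over WT called 7 higher and 4 lower (median 0.24), and H1047R over WT called 6 higher and 5 lower (median 0.31). CASP1, the protease of IL-1 beta and IL-18, was at 23.1, 25.0 and 25.2 CPM in E545K, 32.1, 27.3 and 22.9 CPM in H1047R and 17.5, 18.6 and 17.3 CPM in WT. Every mutant library was above every WT library, and edgeR called a log2 fold change of 0.46 ± 0.09 in E545K (adjusted p = 0.00118) and 0.63 ± 0.09 in H1047R (adjusted p = 3.24e-05). NLRP1, the inflammasome sensor of human keratinocytes, rose by 0.87 in E545K and by 1.59 in H1047R. GSDME, a pore-forming gasdermin, was at 30.8, 31.5 and 29.3 CPM in H1047R and 74.7, 74.1 and 76.4 CPM in WT. Its log2 fold change was -1.30 ± 0.04 in H1047R (edgeR, adjusted p = 2.15e-12) and 0.24 ± 0.04 in E545K, where it was called higher (adjusted p = 0.000355).

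PYCARD, the inflammasome adaptor, had a log2 fold change of 0.51 in E545K and -0.96 in H1047R over WT, both called, but 59.7% of its exon bases are shared with its antisense gene, so its counts are uncertain. NLRP3, the sensor best known from macrophages, stayed below 1 CPM in every library. It was higher in H1047R than in E545K by 1.39 ± 0.27 on the log2 scale (edgeR, adjusted p = 0.000517).

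Of 15 receptor-proximal signalling genes, 14 were tested. E545K over WT called 2 higher and 6 lower (median -0.11), where 36.6% of all genes were called either way, and H1047R over WT called 4 higher and 5 lower (median -0.07), where 55.5% were. PELI2, a Pellino ubiquitin ligase that acts on IRAK kinases, was at 0.498, 0.629 and 0.698 CPM in E545K, 4.08, 3.86 and 4.26 CPM in H1047R and 4.15, 4.14 and 5.03 CPM in WT. E545K alone was low, with a log2 fold change over WT of -2.88 ± 0.14 (edgeR, adjusted p = 5.84e-10), and H1047R lay 2.76 ± 0.14 above E545K (adjusted p = 3.48e-10). MYD88, the adaptor of the receptor, fell by 0.56 in H1047R (edgeR, adjusted p = 5.36e-08) and was not called in E545K (-0.07, adjusted p = 0.272). IRAK1, a kinase downstream of MYD88, fell by 0.53 in H1047R (edgeR, adjusted p = 1.13e-06) and by 0.25 in E545K (adjusted p = 0.00282). TAB2, an adaptor of the kinase TAK1, rose by 0.55 in H1047R (edgeR, adjusted p = 7.8e-08) and was not called in E545K (0.02, adjusted p = 0.776). PELI1 was called higher in E545K (0.26, edgeR adjusted p = 0.00582), a call lost with limma-voom (adjusted p = 0.0575). The count of 2 higher in E545K was 1 with limma-voom and 4 when libraries were scaled by their totals.

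Of 31 genes that IL-1 is known to induce through NF-kB in epithelial cells, 24 were tested. E545K over WT called 14 higher and 5 lower (median 0.25), where 17.7% of all tested genes were higher and 18.9% lower. H1047R over WT called 18 higher and 3 lower (median 0.76), where the shares were 27.4% and 28.1%. H1047R over E545K called 12 higher and 9 lower (median 0.25), where they were 25.9% and 27.3%. The 3 genes that rose most were PTGS2, TNFAIP3 and CXCL8 in E545K, and SAA2, CFB and SAA1 in H1047R. PTGS2, which encodes the inducible cyclooxygenase, was at 14.9, 15.1 and 14.3 CPM in E545K, 3.57, 4.52 and 3.36 CPM in H1047R and 2.38, 2.47 and 2.64 CPM in WT. TNFAIP3, the A20 feedback inhibitor of NF-kB, was at 102.0, 104.0 and 101.2 CPM in E545K, 45.1, 51.0 and 50.9 CPM in H1047R and 22.5, 23.7 and 22.7 CPM in WT. Both were highest in E545K without overlap, with log2 fold changes over WT of 2.57 ± 0.11 for PTGS2 (edgeR, adjusted p = 1.24e-10) and 2.16 ± 0.05 for TNFAIP3 (adjusted p = 6.18e-13).

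CXCL8, a neutrophil chemokine, rose by 2.14 ± 0.25 in E545K (edgeR, adjusted p = 6.86e-06) and by 1.11 ± 0.24 in H1047R (adjusted p = 0.00118), and the highest WT library had 0.541 CPM. In H1047R the largest rises were of secreted innate defence proteins. SAA1, an acute-phase protein, was at 314.5, 272.9 and 242.8 CPM in H1047R and 32.3, 31.7 and 30.5 CPM in WT, a log2 fold change of 3.13 ± 0.08 (edgeR, adjusted p = 1.13e-13). SAA2 gave 4.52 ± 0.13, but it is a near-identical copy of SAA1 and their counts are uncertain. CFB, complement factor B, was at 44.7, 47.8 and 49.1 CPM in H1047R and 3.82, 4.16 and 4.07 CPM in WT. That is a log2 fold change of 3.56 ± 0.06 (edgeR, adjusted p = 6.67e-15), with 45.5% of its exon bases shared with C2 and a further overlapping gene. In E545K over WT, SAA1 (-0.14, edgeR adjusted p = 0.15) and SAA2 (0.30, adjusted p = 0.12) were not called. CFB was called slightly higher there (0.22, edgeR adjusted p = 0.0211).

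LCN2, an iron-scavenging defence protein, moved apart in the mutants, being lower in E545K (-1.33 ± 0.19, edgeR adjusted p = 7.21e-05) and higher in H1047R (2.04 ± 0.16, adjusted p = 4.88e-08). CSF3, the granulocyte growth factor, fell in both. It was at 0.0911, 0.0740 and 0.120 CPM in E545K, 0.0115, 0.0156 and 0.04995 CPM in H1047R and 0.877, 0.867 and 0.764 CPM in WT. Its log2 fold change was -3.14 ± 0.48 in E545K (edgeR, adjusted p = 0.000108) and -4.96 ± 0.50 in H1047R (adjusted p = 6.53e-07), or -5.84 without the third H1047R library.

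**Figure D5:**
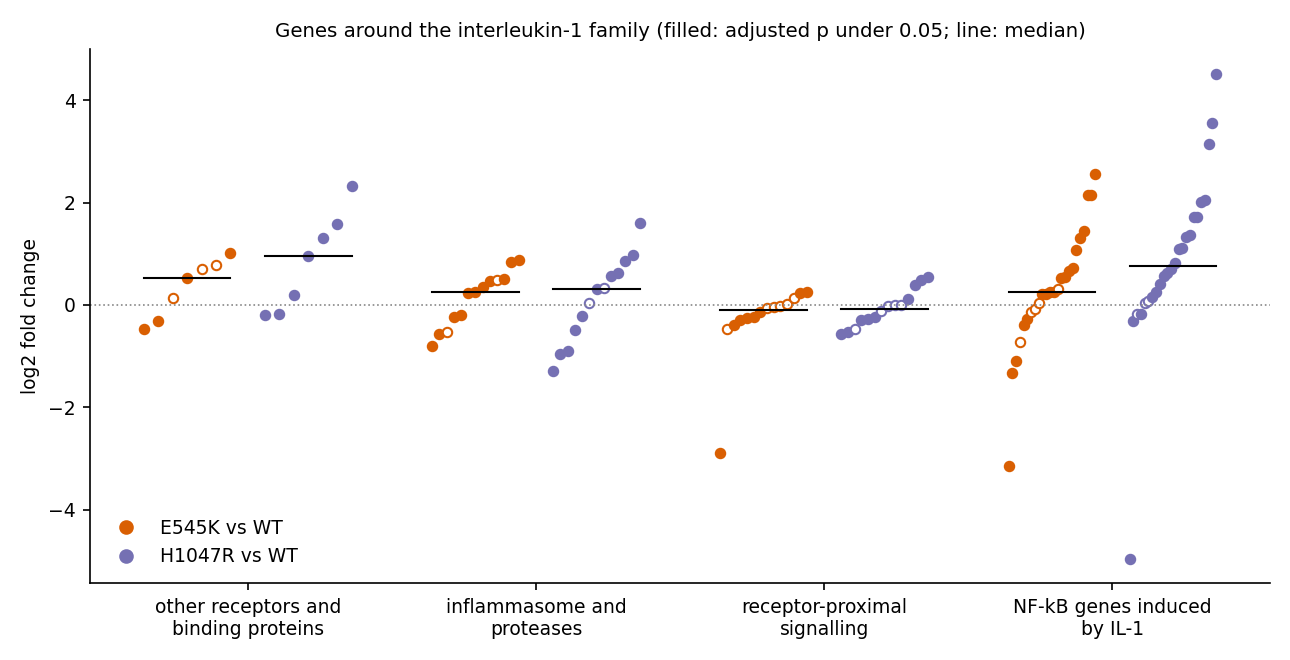
Log2 fold change over WT of the tested genes of 4 lists, 1 point per gene, filled where the edgeR adjusted p is under 0.05, with lines at the list medians. The receptor-proximal genes lie between -1 and 1 apart from PELI2 at -2.88 in E545K, and the NF-kB list reaches 2.57 in E545K and 4.52 in H1047R.

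Markers of cornifying squamous keratinocytes were mostly called higher in H1047R over WT, and those of other cell types were called in both directions or not at all. The part of any of these markers in the results was not tested. A list of 20 markers of cornifying squamous keratinocytes, cells that also make IL-1 and IL-36 cytokines, summed to 82.5 to 85.6 CPM in E545K libraries, 748 to 801 CPM in H1047R and 63.1 to 65.0 CPM in WT. Of its 20 genes 9 reached 1 CPM in E545K, 13 in H1047R and 6 in WT. LORICRIN, KRTDAP, SPRR2A, SPRR3, TGM3, DSC1 and CRCT1 averaged below 1 CPM in each genotype, with CRCT1 at 0 in WT. KRT10, KLK7 and CASP14 averaged 280.5, 213.7 and 178.2 CPM in H1047R and made up most of its sum. Of the 18 tested, 8 were called higher and 2 lower in E545K over WT, and 17 higher and 1 lower in H1047R over WT, against the same shares of all genes. The 12 macrophage and monocyte markers summed to 57.8 to 59.6 CPM in E545K, 85.4 to 95.5 CPM in H1047R and 50.1 to 51.4 CPM in WT, and 3 of them reached 1 CPM in E545K, 4 in H1047R and 3 in WT. Those at 1 CPM or more were CSF1R, CD14 and CD68 in each genotype and ITGAM in H1047R. CSF1R, the receptor of macrophage colony-stimulating factor, averaged 45.9 CPM in E545K, 79.4 CPM in H1047R and 34.0 CPM in WT and made up most of each sum. CD14 averaged 5.03 CPM in E545K, 2.53 CPM in H1047R and 5.16 CPM in WT, and CD68, 85.6% of whose exon bases are shared with other genes, 7.04 CPM in E545K, 5.40 CPM in H1047R and 10.9 CPM in WT. ITGAM averaged 0.466 CPM in E545K, 1.496 CPM in H1047R and 0.362 CPM in WT. The other 8, PTPRC, CD163, LYZ, FCGR3A, FCER1G, TYROBP, AIF1 and SPI1, were below 1 CPM in every genotype, with AIF1 at 0 in E545K and WT and CD163 at 0 in H1047R. Of the 6 tested, 1 was called higher and 1 lower in E545K over WT, and 2 higher and 3 lower in H1047R over WT.

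The 5 endothelial markers summed to 10.5 to 12.2 CPM in E545K, 22.03 to 23.68 CPM in H1047R and 8.46 to 10.3 CPM in WT. KDR alone reached 1 CPM, at a mean of 10.7 CPM in E545K, 22.5 CPM in H1047R and 8.66 CPM in WT, and PECAM1, CDH5, VWF and TEK did not in any genotype. Of the 4 tested, 1 was higher and 1 lower in each mutant over WT. The 7 fibroblast markers summed to 67.1 to 70.1 CPM in E545K, 69.5 to 85.9 CPM in H1047R and 93.8 to 97.4 CPM in WT. COL1A1 and DCN reached 1 CPM in each genotype, and PDGFRA, PDGFRB, COL1A2, COL3A1 and LUM in none, with LUM at 0 in H1047R. COL1A1 averaged 59.5 CPM in E545K, 66.6 CPM in H1047R and 47.4 CPM in WT, and DCN 7.76 CPM in E545K, 13.1 CPM in H1047R and 47.0 CPM in WT. Of the 6 tested, 1 was higher and 1 lower in E545K over WT, and 1 higher and 3 lower in H1047R over WT. None of 6 lymphocyte markers reached 1 CPM in any genotype, and CD3D was at 0 in H1047R.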

How the data were processed

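Per the file headers, the authors deposited gene counts made by featureCounts 2.0.0 with GENCODE 32 exons on hg38. Reads that overlapped several genes counted for each, strand was not used and mates were counted singly, so overlapping and antisense genes share counts. Trim Galore 0.4.0, STAR and SAMtools 1.5 are named in the submitters' processing notes, without settings. Of 60609 identifiers, 60295 matched GENCODE 44 names, and SOD2 was among those not matched.

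Deposited counts were tested with edgeR 4.0.16 in R 4.3.3, with filterByExpr, TMM scaling and 1 quasi-likelihood model of genotype over 9 libraries. Values were adjusted by Benjamini-Hochberg over 26412 genes and called at an adjusted p under 0.05. The standard error is the log2 fold change divided by the square root of F. The procedure was tested on simulated data. Poisson intervals and floors cover counting error only.

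The members and lists were chosen with earlier results of these data known. Named from each list were up to 3 called genes with the largest change of at least 2-fold and at least 1 CPM, plus the largest called the other way, in each comparison. CASP1, IL18RAP, IRAK1, TAB2 and the second-mutant values of named genes were added after their values were seen. Profiles were compared over protein-coding genes of at least 5 CPM in a genotype. DESeq2 1.42.0, limma-voom (limma 3.58.1), other scalings and filters, a replicate block and leaving out each library were tried as alternatives. Same-numbered libraries of different genotypes did not deviate together (correlations -0.0348 to 0.0227), so the numbers were not taken as pairs.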

Additional observations from a re-analysis of the deposited data

Results flagged for a closer look

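IL1A was singled out because its change from WT differed between the mutants by a direct test. It was 0.95 ± 0.07 on the log2 scale in E545K and -1.07 ± 0.07 in H1047R, and the difference, H1047R over E545K, was -2.02 ± 0.07 (edgeR, adjusted p = 7.42e-12), with all 3 H1047R libraries below all 3 WT libraries and all 3 E545K libraries above them. Both changes share the WT libraries. Such a difference was not particular to IL1A, since H1047R over E545K was also called for IL1B, IL1RN, IL18, IL36RN and IL1R1. For IL1B it was larger, at -3.23 ± 0.08. IL1A was the only tested member called in opposite directions over WT in the mutants.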

How the results depend on the processing

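For the 21 results on tested members (7 genes in 3 comparisons), 19 alternatives gave 392 values, of which 372 kept both direction and side of the threshold, and 15 results kept them throughout. The members called in E545K over WT numbered 4 in place of 2 when only those genotypes were fitted, and 2 to 4 when 1 library was left out, the 4 coming without the first H1047R library, where IL18 and IL1R1 were added. IL18 in H1047R over WT turned to 0.0083 with protein-coding genes only, and ran from -0.14 to 0.064 with 1 library left out. IL1R2 in E545K over WT turned to -0.062 with a replicate block and to -0.29 with limma-voom, and ran from -1.26 to 0.66 with 1 library left out. The replicate block called 3 members in E545K over WT (IL18 added, adjusted p = 0.048), 5 in H1047R over WT and 6 in H1047R over E545K, and 9441, 14394 and 13731 genes. Scaling by library totals shifted the median log2 fold change to 0.10 in E545K over WT and -0.12 in H1047R over E545K, and the share of calls that were higher to 66.1%, against 48.3%, and 33.2%, against 48.7%. The cause of these changes was not tested. IL36RN and IL1R2 have no value where a stricter filter removed them. Depth limits IL33, IL36B and IL36G, and H1047R libraries were the deepest and varied most.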
